A study of Bos taurus with 6 samples.

Results

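Long-chain acyl-CoA synthetases (ACSL) and acyl-CoA thioesterases (ACOT) were described in whole blood of cattle that carry the fat-1 transgene. A synthetase joins a free fatty acid to coenzyme A, which commits it to oxidation, to membrane and storage lipids or to signalling, and a thioesterase cleaves the bond again. The ACSL enzymes differ in the fatty acids they prefer and in the membranes they sit on, and the ACOT enzymes sit in the cytosol, mitochondria or peroxisomes. The transgene comes from Caenorhabditis elegans, a nematode, and its product converts omega-6 into omega-3 fatty acids, which mammalian enzymes cannot do.

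The members were 10 genes, 5 synthetases (ACSL1, ACSL3, ACSL4, ACSL5 and ACSL6) and 5 thioesterases (ACOT2, ACOT7, ACOT8, ACOT9 and ACOT13), out of 15704 gene symbols on the array. They were found by the gene name of a probe or the symbol in its description, which gave 24 of 43653 probes, 15 for synthetases and 9 for thioesterases. Blood from the jugular vein of 3 fat-1 and 3 wild type females was hybridised to 1-colour Agilent arrays, 1 array per animal. The fat-1 animals, replicates 1 to 3, were 3.5, 3 and 3 years old, and the wild type animals were 3 years old. The promoter of the transgene and the number of founder lines are not stated in the sources used here. As 0 probes were annotated to the transgene, the genotype labels could not be checked by its RNA.

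Arrays of the fat-1 animals lay on slide 1, in scan 1, and those of the wild type animals on slide 2, in scan 2. Group therefore cannot be told apart from slide or scan in any value given here. The 75th percentile of spot intensity was 716 to 1067 on fat-1 arrays and 613 to 887 on wild type arrays, and 60.4% to 63.5% and 58.4% to 61.3% of spots were well above background. Levels are given as log2 intensity minus that of the array's own 75th percentile, so that 0 is that percentile and a step of 1 is a doubling. Intensity depends on the probe, so levels are compared between animals only. Of the 24 probes, 21 exceeded background clearly on 3 or more arrays and were tested, and 20 of these did so on all 6.

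The probes that the results turn on are shown first. Each is 60 bases long, and its letters are those in the array files, 5′ to 3′ in lower case, with capitals for a stop codon that closes an open reading frame at the end of the probe. The file headers give positions on Btau_3.1. A pair for ACSL3 gave the smallest p-values of the set. A pair for ACSL1 stayed near background where other probes of the gene did not. A pair for ACSL5 separated 1 animal from the rest, and the ACOT2 probe had lower values in each fat-1 animal.
ACSL3 probe 1, chr2:115590914-115591709, plus strand: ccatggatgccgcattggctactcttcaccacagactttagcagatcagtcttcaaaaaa
ACSL3 probe 2, chr2:115606208-115606267, plus strand: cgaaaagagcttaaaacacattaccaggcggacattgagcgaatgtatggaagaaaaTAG
ACSL1 probe 5, chr27:16494794-16494853, minus strand: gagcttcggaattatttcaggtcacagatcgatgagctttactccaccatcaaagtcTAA
ACSL1 probe 6, chr27:16515906-16518401, minus strand: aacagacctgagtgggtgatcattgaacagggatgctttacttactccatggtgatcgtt
ACSL5 probe 2, chr26:33343793-33349867, plus strand: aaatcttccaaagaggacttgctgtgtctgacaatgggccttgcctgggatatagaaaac
ACSL5 probe 3, chr26:33353579-33353638, plus strand: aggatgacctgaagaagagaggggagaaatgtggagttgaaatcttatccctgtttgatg
ACOT2, chr10:87436015-87436074, plus strand: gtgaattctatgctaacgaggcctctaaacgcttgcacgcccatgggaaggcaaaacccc
Intervals longer than the probe show that ACSL3 probe 1, ACSL1 probe 6 and ACSL5 probe 2 span an intron in the files' annotation. ACSL3 probe 2 and ACSL1 probe 5 end on a stop codon, TAG and TAA. Of the 24 member probes, 0 shared a run of 20 bases with a probe of another gene on the array. Only probes were compared, not transcripts, so binding to the RNA of another gene was not tested. The hexamer AATAAA, the usual polyadenylation signal, searched on the strand of the probe, was in 4 of the 24 (16.7%) and in 9.35% of all 43653 probes of that length. The GC content of member probes was 35% to 55%, against a median of 45% over all probes.

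None of the 10 genes differed between fat-1 and wild type blood at an adjusted p under 0.05 by limma, at any of the 21 tested probes, against 46 of 26823 probes or 0.171% on the whole array (0.0783% higher and 0.0932% lower). The lowest adjusted p of a member was 0.379. At an unadjusted p under 0.05 there was 1 of 21 (4.76%), higher in fat-1 blood, against 12.8% of all tested probes (6.11% higher and 6.71% lower). The values of the groups did not overlap for 4 of 21 probes (19.0%), against 19.6% of all probes, which is the background share. Of these 4, ACSL1 probe 4 and both tested ACSL3 probes were higher, where 6.89% of all probes were, and ACOT2 was lower, where 12.7% were.

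The synthetases leaned one way without any of them passing. All 12 tested ACSL probes, from 5 genes, had a difference above 0, with a median of 0.28 and a range of 0.14 to 0.62, where 44.6% of all tested probes were above 0 and their median was -0.059. The same 12 were above 0 with quantile scaling and with normexp background correction, where 48.2% and 31.9% of all probes were. Probes of a gene share a transcript, so this is 5 genes and not 12 observations. Without fat-1 replicate 1 it was 10 of 12, and with array weights 11 of 12. All these settings draw on the same animals, and the members were chosen with earlier results of these data known. Of the 9 ACOT probes 5 were above 0, with a median of 0.053 and a range of -0.49 to 0.68. No member differed as much as 2-fold at any probe, and 4.97% of all tested probes did.

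**Figure D1:**
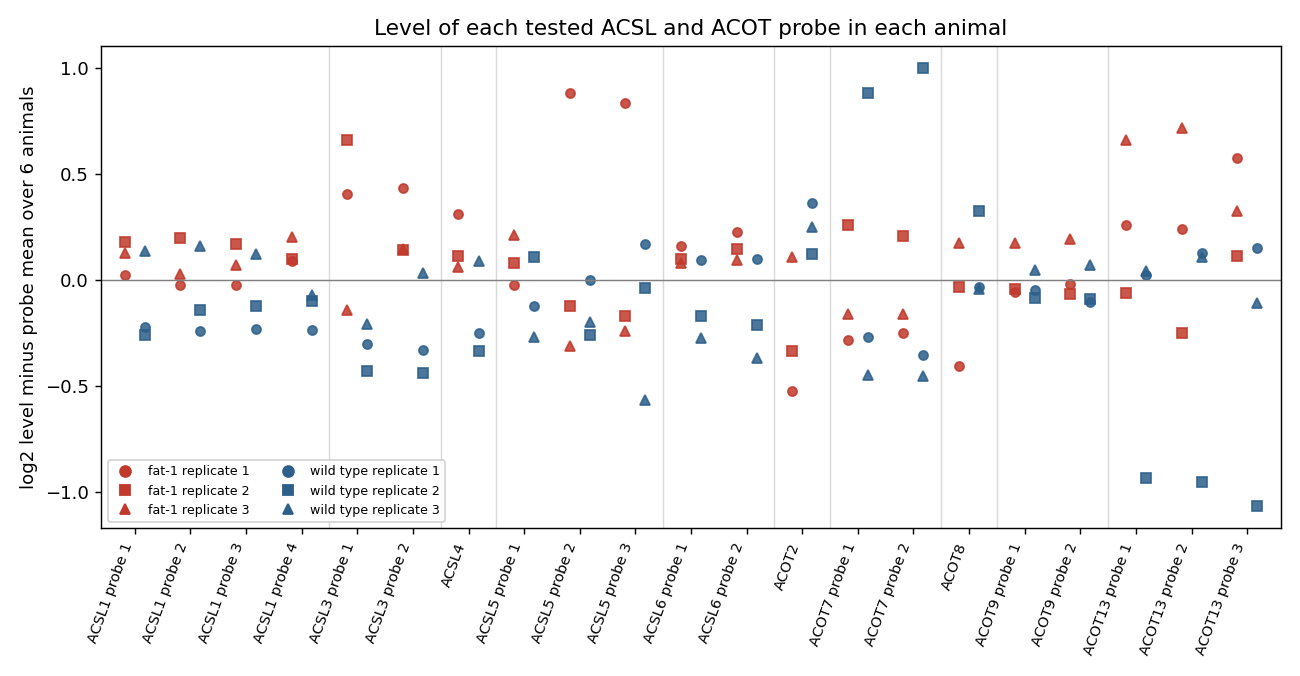
Log2 level of each of the 21 tested probes in each animal, minus the mean of that probe over the 6 animals (y axis), by probe (x axis); red points are fat-1 animals, left, and blue points wild type animals, right, with a marker for each replicate. The groups separate at ACSL1 probe 4, both ACSL3 probes and ACOT2, fat-1 replicate 1 stands high at ACSL5 probes 2 and 3, and wild type replicate 2 stands high at ACOT7 and low at ACOT13.

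ACSL3, a synthetase of the endoplasmic reticulum and of growing lipid droplets, had the largest differences among the synthetases. Probe 1 (A_73_P105831) stood at -0.89, -0.63 and -1.44 in fat-1 animals 1 to 3, against -1.60, -1.72 and -1.50 in wild type animals. Every fat-1 animal was above every wild type animal, with fat-1 replicate 3 only just so. The difference was 0.62 ± 0.25 (SE), or 1.54-fold with a 95% interval of 1.03 to 2.30, at an unadjusted p of 0.0389 and an adjusted p of 0.379 by limma.

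Probe 2 of ACSL3 (A_73_P095121), which ends at the stop codon, stood at -1.39, -1.69 and -1.68 in fat-1 animals and at -2.16, -2.27 and -1.80 in wild type animals. The groups again did not overlap, and the difference was 0.49 ± 0.22 with an adjusted p of 0.398 by limma. The other ACSL3 probe (A_73_111416), on chr2:115607012-115607071 and 804 bases further 3′, was well above background on 0 of 6 arrays and was not tested. With normexp background correction the tested probes had 0.38 and 0.21. The unadjusted p of probe 1 was 0.154 with normexp and 0.0107 with array weights. It ran from 0.00994, without fat-1 replicate 3, to 0.151, without fat-1 replicate 2, when 1 animal was left out, with differences of 0.85 and 0.44 there.

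ACSL1, the synthetase of liver, fat and heart that is also induced in activated macrophages, had 6 probes, 4 of them measured in every animal and starting within 389 bases of each other at the 3′ end. The brightest (A_73_109530, chr27:16493365-16493424) stood at 1.08, 1.24 and 1.18 in fat-1 animals and at 0.83, 0.79 and 1.20 in wild type animals. Wild type replicate 3 lay inside the fat-1 range, and the difference was 0.23 ± 0.21 with an adjusted p of 0.602 by limma. The other 3 of these probes gave 0.14, 0.15 and 0.27. At the last of them, probe 4 (A_73_P435586), the groups did not overlap, with -1.39, -1.38 and -1.27 in fat-1 animals and -1.71, -1.58 and -1.55 in wild type animals, at an adjusted p of 0.520 by limma, and with normexp its difference was 0.091. The 95% interval of the brightest probe ran from 0.838-fold to 1.63-fold.

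The 2 coding probes of ACSL1 printed above were barely detected. Probe 5, at the stop codon and 1429 bases upstream of the 3′-most probe, was well above background on 0 of 6 arrays. Probe 6, with its 3′ end 22541 genomic bases upstream of that of the same 3′-most probe, was so on the array of fat-1 replicate 1 alone. It stood at -4.18, -4.60 and -5.43 in fat-1 animals and at -5.37, -5.71 and -4.97 in wild type animals. The groups overlapped, and with 1 of 6 values well above background no fold is given.

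ACSL4, the synthetase known for its preference for arachidonic acid and other long polyunsaturated fatty acids, had 1 probe (A_73_P078201, chrX:35811613-35818244). It stood at 0.91, 0.72 and 0.66 in fat-1 animals and at 0.35, 0.27 and 0.69 in wild type animals. Wild type replicate 3 lay above fat-1 replicate 3, so the groups overlapped. The difference was 0.33 ± 0.21, or 1.25-fold with a 95% interval of 0.892 to 1.76, and the adjusted p was 0.488 by limma. The interval takes in no difference as well as one of 1.76-fold.

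ACSL6, the isoform first known from red cells and brain, had 2 probes 80 bases apart. The brighter (A_73_119748, chr7:21224865-21224924) stood at 1.57, 1.51 and 1.49 in fat-1 animals, which lay close together, and at 1.51, 1.25 and 1.14 in wild type animals. Wild type replicate 1 overlapped the fat-1 values, and the difference was 0.23 ± 0.20 with an adjusted p of 0.588 by limma. The other probe gave 0.32 ± 0.21. Both intervals included 0.

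ACSL5, a synthetase of mitochondria and endoplasmic reticulum that is abundant in the gut, had values that depended on the probe. Probe 1 (A_73_113054, chr26:33369749-33369808), at the 3′ end, stood at 5.24, 5.34 and 5.47 in fat-1 animals and at 5.14, 5.37 and 4.995 in wild type animals, a difference of 0.18 ± 0.21. The animals overlapped and none stood apart there. The difference was 0.40 with quantile scaling and with the authors' value table, each at an unadjusted p of 0.043 and an adjusted p of 0.354 by limma, and 0.096 without wild type replicate 3. Probe 2 (A_73_P331466), 19941 genomic bases upstream, stood at -0.74, -1.74 and -1.93 in fat-1 animals and at -1.62, -1.88 and -1.82 in wild type animals. Probe 3 (A_73_P320416), 16170 genomic bases upstream, stood at -1.45, -2.46 and -2.53 in fat-1 animals and at -2.12, -2.32 and -2.85 in wild type animals.

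At both upstream ACSL5 probes fat-1 replicate 1 was the highest animal. The differences of 0.30 and 0.29 were -0.065 and -0.061 without it, and the adjusted p with it was 0.644 and 0.678 by limma. The same array was high at upstream probes over the whole array. Among 2099 other genes with tested probes at least 5000 genomic bases apart, the level of the 5′-most minus that of the 3′-most probe, centred per gene, had a median of 0.31 in fat-1 replicate 1, with 82.3% of genes above 0. The median was -0.066 and -0.20 in fat-1 replicates 2 and 3, and 0.042, -0.031 and -0.062 in wild type replicates 1 to 3. The measure was chosen after the ACSL5 values were seen, and its part in the values of ACSL5 or ACSL1 was not tested. For ACSL3 alone the same quantity was -0.027, 0.52 and -0.29 in fat-1 replicates 1 to 3, and 0.027, 0.011 and -0.24 in wild type replicates 1 to 3. In fat-1 replicate 1 it was 0.90 for ACSL5 and 0.034 for ACOT7.

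**Figure D2:**
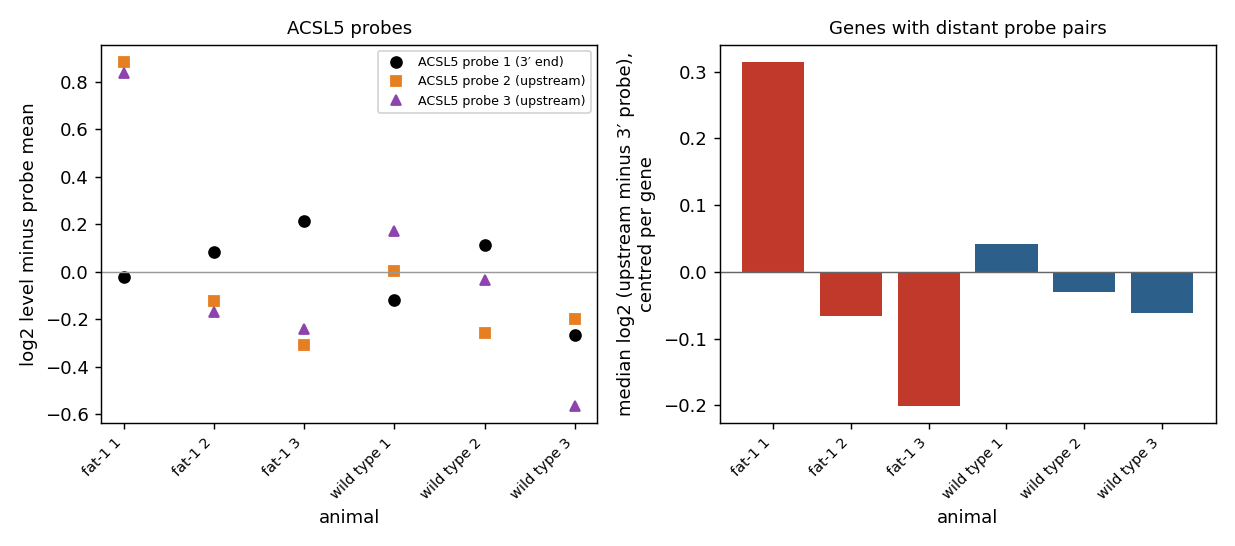
Left, log2 level of the 3 ACSL5 probes in each animal minus the mean of the probe (y axis), with the 3′ probe in black and the upstream probes in orange and purple; right, the median over 2099 genes of the level of the 5′-most minus the 3′-most probe, centred per gene (y axis, log2), with fat-1 bars red and wild type bars blue. Fat-1 replicate 1 is the highest animal at both upstream ACSL5 probes and has the highest bar, 0.31.

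Among the thioesterases, ACOT2 had the lowest difference. ACOT2 releases long-chain fatty acids in the mitochondrial matrix. Its probe (A_73_116870) stood at -3.08, -2.89 and -2.45 in fat-1 animals and at -2.19, -2.43 and -2.31 in wild type animals. The groups did not overlap, but the highest fat-1 and the lowest wild type animal were almost level. The difference was -0.49 ± 0.23, or 0.710-fold with a 95% interval of 0.490 to 1.03, at an unadjusted p of 0.0658 and an adjusted p of 0.407 by limma.

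ACOT13, a thioesterase associated with mitochondria and a partner of a phosphatidylcholine transfer protein, had the highest differences. Its brightest probe (A_73_P050186, chr23:33180152-33180211) stood at -0.24, -0.56 and 0.16 in fat-1 animals and at -0.48, -1.43 and -0.46 in wild type animals. The difference was 0.58 ± 0.33 with an adjusted p of 0.444 by limma. The other probes, 273 and 1182 bases upstream, gave 0.47 ± 0.37 and 0.68 ± 0.33. Wild type replicate 2 was the lowest animal at each of the 3 probes, and was not well above background at the last. Without wild type replicate 2 the differences were 0.25, 0.12 and 0.32, and the probe with 0.68 had -0.083 with normexp.

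ACOT7, a cytosolic thioesterase abundant in brain, had its highest value in the animal with the lowest ACOT13 values. Its brighter probe (A_73_100257, chr16:44287728-44287787) stood at 3.97, 4.51 and 4.09 in fat-1 animals and at 3.98, 5.14 and 3.81 in wild type animals. Wild type replicate 2 was the highest, and fat-1 replicate 2 came next. The difference was -0.12 ± 0.36, and the second probe, 12436 genomic bases upstream, gave -0.13 ± 0.39 (adjusted p 0.880 and 0.874 by limma). Both were above 0, at 0.30 and 0.34, without wild type replicate 2. The sign also turned at the first probe with quantile scaling, where it had 0.053.

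ACOT8, the peroxisomal thioesterase, stood at 2.38, 2.75 and 2.95 in fat-1 animals and at 2.75, 3.11 and 2.74 in wild type animals at its only probe (A_73_P045076, chr13:75381582-75381641). Wild type replicate 2 was again the highest, the groups overlapped, and the difference was -0.17 ± 0.24 with an adjusted p of 0.716 by limma. With 1 animal left out it ran from -0.30 to -0.015, nearest 0 when fat-1 replicate 1 was dropped, and with quantile scaling it was -0.031. ACOT9, a mitochondrial thioesterase, had the smallest difference of the 10 genes. Its brighter probe (A_73_P251396, chrX:73400145-73400204) stood at 1.20, 1.22 and 1.44 in fat-1 animals and at 1.21, 1.18 and 1.31 in wild type animals, a difference of 0.053 ± 0.20. The second ACOT9 probe gave 0.079 ± 0.20, with both 95% intervals between 0.759-fold and 1.45-fold. In the files the position of that second probe covers 17 bases only.

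**Figure D3:**
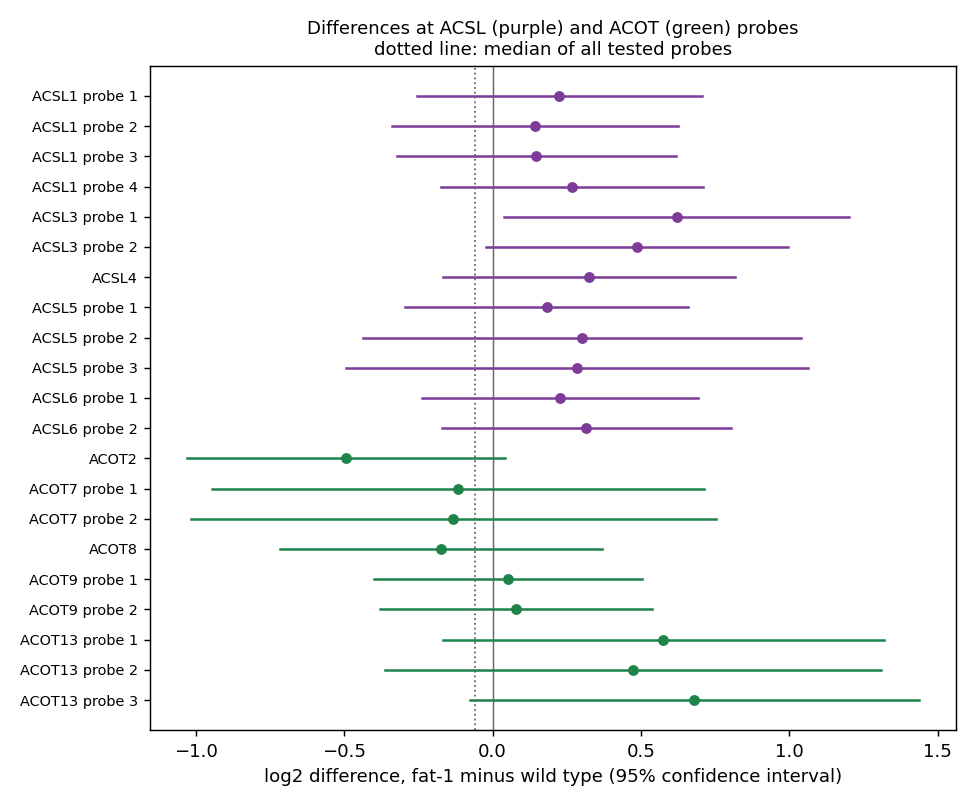
Log2 difference, fat-1 minus wild type (x axis), with its 95% confidence interval for the 21 tested probes (y axis); purple marks ACSL and green ACOT probes, and the dotted line is the median of all tested probes, -0.059. All 12 ACSL points lie right of 0, from 0.14 to 0.62, and the interval of ACSL3 probe 1 is the only one of the 21 that leaves out 0.

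Whole blood is a mixture of cells, and fewer cells of a type and less RNA per cell cannot be told apart in these values. Lists of cell type markers were therefore read beside the members. Red cell markers, with 7 of 8 measured and CA1 not well above background, differed widely between animals. They did not share a direction. The differences were above 0 for 5 of 7, such as HBA (1.72) and EPB42 (1.35), and below 0 for SLC4A1 (-1.44) and AHSP (-0.35). The mean of the red cell markers, relative to all animals, was 0.055, 0.69 and 0.19 in fat-1 animals and -1.15, 1.02 and -0.81 in wild type animals. It was highest in wild type replicate 2 and next in fat-1 replicate 2, as at ACOT7, but the order of the other animals differed. The red cell mean was lowest in wild type replicate 1, and the brighter ACOT7 probe in wild type replicate 3 (3.81). This likeness was picked after the values were seen. Neutrophil markers had the same animals highest, at 0.30 in wild type replicate 2 and 0.27 in fat-1 replicate 2. The mean level over the red cell markers ranged from 0.89 to 1.52 in fat-1 and from -0.31 to 1.86 in wild type animals (exact permutation test, two-sided, p = 0.4, with 0.1 the smallest p possible for 3 against 3).

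Neutrophil markers, with 7 of 10 measured, ranged from 4.32 to 4.81 in fat-1 and from 4.13 to 4.83 in wild type animals, with CXCR1 and CXCR2 not well above background. Monocyte markers, 8 of 8 measured, ranged from 1.90 to 2.53 in fat-1 and from 1.94 to 2.25 in wild type animals, and platelet markers, 4 of 6 measured, from 2.59 to 3.34 and from 2.34 to 2.62. The differences were above 0 for 5 of 7 neutrophil, 6 of 8 monocyte and 4 of 4 platelet markers. T cell markers, 7 of 7 measured, ranged from 3.40 to 3.99 in fat-1 and from 3.91 to 4.53 in wild type animals, with 7 of 7 differences below 0. The groups did not overlap for 2 lists, both lower in fat-1 blood at the smallest possible exact permutation p of 0.1. Gamma-delta T cell markers, a list named with these data known, had -1.15 to 0.33 in fat-1 and 0.88 to 1.24 in wild type animals, with 6 of 6 differences below 0. B cell markers, 5 of 7 measured, had 2.146 to 2.448 in fat-1 and 2.454 to 3.167 in wild type animals, a narrow gap, with 4 of 5 below 0. NK cell markers, 5 of 5 measured, ranged from 0.0064 to 0.83 in fat-1 and from 0.36 to 0.71 in wild type animals, with 2 of 5 differences above 0. The part of these cells in the values of the members was not tested.

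By the pattern over the 6 animals, the genes most like ACSL3 probe 1 were ANKRD44, CFDP2, ALCAM and FNTA, with Pearson correlations of 0.996, 0.996, 0.995 and 0.993. They are the highest of 26823 probes searched over only 6 arrays, and are given as a description. Their own differences between the groups were 0.60, 0.40, 0.96 and 0.16.

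The other genes that make, bind, cleave or move acyl-CoA were read in 4 lists, with 1 probe per gene. Of 50 genes 33 were tested, 0 passed an adjusted p of 0.05 by limma, and 4 had an unadjusted p under 0.05, 1 higher and 3 lower, against 6.11% and 6.71% of all tested probes. Their differences were above 0 for 14 of 33, against 44.6% of all probes. By list, 2 of 10 other synthetases, 4 of 6 other thioesterases, 5 of 9 binding proteins and 3 of 8 genes of the carnitine shuttle were above 0. The difference between these lists and ACSL was not tested.

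Other acyl-CoA synthetases had 10 of 17 tested and a median difference of -0.073. ACSS3, a mitochondrial synthetase of short-chain substrates, had a difference of 0.70 ± 0.32, with overlapping groups. SLC27A5, which activates bile acids in liver, had -0.40 ± 0.24. Other thioesterases had 6 of 11 tested and a median of 0.12. THEM6, a member of the thioesterase superfamily, had -0.61 ± 0.30 and no overlap between the groups, and ACOT11, a thioesterase known from thermogenic fat, had 0.33 ± 0.27, with 0.24 to 0.50 at its 6 further probes.

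Among proteins that bind acyl-CoA or fatty acids, 9 of 14 were tested, with a median of 0.18. FABP2, the intestinal fatty acid binding protein, stood at -3.07, -2.47 and -2.75 in fat-1 animals and at -3.79, -6.01 and -4.82 in wild type animals, and was well above background in 3 of 3 fat-1 and 1 of 3 wild type animals. It passed the filter through its fat-1 values, so its fitted difference of 2.11 (adjusted p 0.184 by limma) is set against wild type values mostly near background and is no measured size. With the filter on all arrays, the list had 1 gene at an unadjusted p under 0.05 in place of 2. FABP3, the heart type, stood at 1.57, 1.73 and 1.66 in fat-1 animals, below the 1.97, 3.00 and 2.20 of wild type animals. Its difference was -0.74 ± 0.29 with an adjusted p of 0.370, and -0.82 to -0.43 at its other probes. All 8 genes of the carnitine shuttle, which carries acyl groups made by the synthetases into mitochondria, were tested, with a median of -0.14.

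In the shuttle, the carrier SLC25A20 stood at 2.47, 2.39 and 2.53 in fat-1 animals, against 2.91, 3.08 and 2.95 in wild type animals. The spread within each group was small and the groups lay apart, but the difference of -0.52 ± 0.19 had an adjusted p of 0.357 by limma. CPT1B, the muscle form of the enzyme that makes acylcarnitine, had -0.91 ± 0.26 at an adjusted p of 0.270, and 0.28 at another tested probe.

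**Figure D4:**
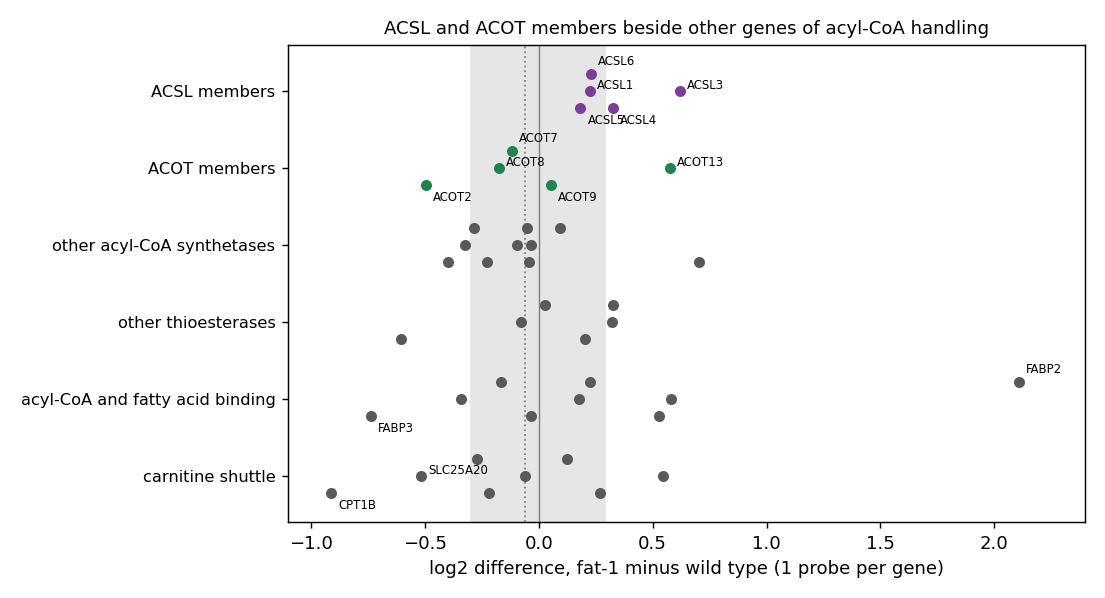
Log2 difference, fat-1 minus wild type (x axis), of the members and of the other tested genes of acyl-CoA handling, with 1 probe per gene, by list (y axis); the grey band holds the middle 50% of all tested probes, the dotted line is their median, and names are given for members and for other genes with an unadjusted p under 0.05. The 5 ACSL genes lie between 0.18 and 0.62, and the other lists spread to both sides of 0.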

How the data were processed

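The deposited scanner files hold processed spot intensity from Feature Extraction 10.7.1.1 of Agilent, which subtracted background within each array, per the file headers. They are not scaled between arrays. The authors' deposited value table holds log2 values, with a median of 6.38 for fat-1 replicate 1. Each column correlated with its own array at 0.999 or above, and the sources used here do not name the tool behind the table. Flags of 0 or 1 were used as deposited.

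From log2 processed intensity the array's own 75th percentile was subtracted, replicate spots were averaged and 32 probes were dropped for outlier flags. A probe was tested if 3 of 6 arrays or more called it well above background. The test was limma (3.58.1, in R 4.3.3; lmFit, eBayes) on group alone, adjusted by Benjamini-Hochberg over 26823 probes. Differences are fat-1 minus wild type. The replicates are separate animals, and the number of arrays limits the precision. Gene names of other genes came from accessions and symbols through a RefSeq table of ARS-UCD2.0.

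Members and lists were chosen with earlier results of these data known. Every member and probe is accounted for. Animals' values are given for the brightest probe of each member, for probes at an unadjusted p under 0.05 and for others chosen after their values were seen, among them ACSL3 probe 2, ACSL1 probe 4 and the upstream ACSL5 probes. Of each pathway list, genes at an unadjusted p under 0.05 are named, or the 2 with the smallest p.

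Alternatives were normexp background correction (offset 50), quantile scaling, the value table, 2 other filters on dim probes, an intensity trend, array weights, the replicate number as a block, and leaving out each animal.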

Additional observations from a re-analysis of the deposited data

How the results depend on the processing

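No member probe passed an adjusted p of 0.05 in any of the 14 alternatives, in which the lowest adjusted p was 0.0664, for ACOT2 with array weights, and 0.167 with all others, for ACSL3 probe 2 without wild type replicate 3. Of 293 member values under the alternatives 281 kept their direction. Those that turned were ACSL5 probe 3 with array weights (-0.017), the brighter ACOT7 probe with array weights (0.21), the authors' value table (0.053), quantile scaling (0.053) and normexp (0.011), the other ACOT7 probe with array weights (0.27) and the dimmest ACOT13 probe with normexp (-0.083). With an animal left out, the values ran from -0.065 to 0.53 at ACSL5 probe 2, from -0.061 to 0.48 at probe 3, from -0.37 to 0.30 and from -0.39 to 0.34 at ACOT7, and from -0.022 to 0.095 at the brighter ACOT9 probe.

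The 1 member probe at an unadjusted p under 0.05 became 5 with array weights, 3 with the value table, 3 with quantile scaling, 2 with the replicate block, 0 with normexp, 0 without a filter on dim probes and 0 to 2 with an animal left out. The 4 pathway genes became 10 with array weights and 2 to 7 with an animal left out. Over all probes the 46 calls became 2008 with array weights, 126 with an intensity trend, 116 with normexp, 105 with the replicate block, 16 with quantile scaling or the value table, 14 without the filter and 8 to 55 with an animal left out. The weights came from limma's gene-by-gene method, chosen after its default did not converge, and gave wild type replicate 1 a weight of 5.69 and the others 0.312 to 1.34. The cause was not tested. Deviations of same-numbered animals correlated at 0.117, 0.185 and 0.00583, and 4 of 6 animals correlated best with their own number. The main fit did not take the numbers as pairs, and these correlations do not settle whether the animals were paired.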

Other observations

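A further probe (A_73_P291166, chrX:35828200-35837384 on Btau_3.1) is annotated to a transcript, ENSBTAT00000025272, that the files also list for the ACSL4 probe, but carries no gene symbol and was not a member. It stood at -2.83, -3.78 and -4.28 in fat-1 animals and at -4.29, -4.49 and -4.15 in wild type animals, with fat-1 replicate 1 the highest. The difference was 0.68 ± 0.36 with an adjusted p of 0.425 by limma. It was looked up after the ACSL4 values were seen.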
